A study of Mus musculus with 13 samples.

Results

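The genes described here are the 10 core genes of the nuclear end of the Hippo pathway: the coactivators Yap1 (YAP) and Wwtr1 (TAZ), the DNA-binding partners Tead1, Tead2, Tead3 and Tead4, the TEAD cofactor Vgll4, and the target genes Ccn1, Ccn2 and Ankrd1. They were chosen by symbol, and all 10 were among the 26720 genes of the deposited count table. RNA was measured in CD4+ splenic cells sorted on a YFP reporter of Foxp3, the factor that defines regulatory T (Treg) cells. The cells came from Foxp3YFPCre/+Stk3∆/∆Stk4∆/∆ mice (6 libraries, called deleted) and from Foxp3YFPCre mice (7 libraries, called control). The mice were about 4 to 5 weeks old, and both groups carried the YFP-Cre allele. Cre is driven by Foxp3, so that Stk3 and Stk4 are removed in cells that express the YFP-Cre allele, and not in every Foxp3-expressing cell. Deleted mice were heterozygous for Cre by their label, while control labels leave its dose unsaid, so Cre dose and deletion cannot be told apart.

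In the Hippo pathway the kinases MST1 and MST2, encoded by Stk4 and Stk3, activate LATS kinases, which phosphorylate YAP and TAZ and keep them out of the nucleus. Free of that phosphorylation, YAP and TAZ bind TEAD factors on DNA and raise transcription of genes such as Ccn1, Ccn2 and Ankrd1. The pathway acts on YAP and TAZ protein, so the level of their RNA is not a reading of their activity. In mouse T cells TAZ is known to favour Th17 over Treg differentiation, and YAP to support Treg function through activin signalling.

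TEAD proteins bind the hexamer GGAATG, which reads CATTCC on the other strand. It was searched on both strands in the 250 bases upstream of each transcription start in RefSeq (GRCm38.p6), for 7 of the 10 genes, without Tead1, Tead4 and Ccn2. It matched in 6 of those 7 genes, all but Tead2, and in 8 of their 10 promoter entries, some of which overlap. Of all 32851 promoter entries 12.6% held the hexamer, as did 11.3% of the 948 entries of Olfr genes, the olfactory receptor genes used below as background. These shares are over entries, so they are no background for the 6 of 7 genes. Tead3 held 3 matches. The windows of the target genes and of the cofactor genes are shown because this hexamer is the known link between TEAD factors and the genes they drive, with the hexamer in capitals, 5′ to 3′ on the gene's strand. The Ccn1 window lies at chr3:145650071-145650100, the Ankrd1 windows at chr19:36120037-36120066 and chr19:36119950-36119979, the Yap1 window at chr9:8004720-8004749, the Wwtr1 window at chr3:57576029-57576058 and the Vgll4 window at chr6:114969268-114969297, all on the minus strand. A match is a description of the letters and not a bound site.
Ccn1: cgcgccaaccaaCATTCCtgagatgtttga
Ankrd1, distal: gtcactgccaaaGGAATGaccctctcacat
Ankrd1, proximal: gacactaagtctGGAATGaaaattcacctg
Yap1: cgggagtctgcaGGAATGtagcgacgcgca
Wwtr1: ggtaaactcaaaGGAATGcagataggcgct
Vgll4: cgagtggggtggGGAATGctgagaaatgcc

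The depth of a library is its total count over genes. It ran from 2671660 to 4569655 in deleted and from 3705511 to 8323919 in control libraries. Olfr genes serve sensory neurons of the nose, yet 1126 of them were in the table, and the median Olfr gene had 11 to 20 counts in deleted and 11 to 17 counts in control libraries. Olfactory and vomeronasal receptor genes together took 0.761 to 1.89% of the counts in deleted and 0.371 to 1.07% in control libraries. The targeted genes did not pass the test: Stk3 had a log2 fold change of -0.01 (SE 0.20) and Stk4 of -0.31 (SE 0.33), by edgeR's quasi-likelihood test (adjusted p = 0.981 and 0.576). Stk4 was at 57.8 to 204 CPM (counts per 1000000 counts, after the TMM scaling described below) in 5 of the deleted libraries. Of these, 3 lay below the lowest control library, and control libraries were at 135 to 290 CPM. The library labelled deleted replicate 1 had 393 CPM of Stk4, above every control library. In Nt5e and Ctla4 it lay below every control library like all 6 deleted libraries, for Ctla4 narrowly (highest deleted 106, lowest control 107 CPM). In Cd3e it was instead the highest deleted library, at 273 CPM, above the lowest control library at 207 CPM. It was the only deleted library not below every control library in Cd3e, where 5 of 6 were. Without it the log2 fold change of Stk4 was -0.75 (SE 0.28, edgeR adjusted p = 0.0791), 0 of the 10 genes described here passed, none of their signs turned, and their log2 fold changes ran from -0.59 (Tead3) to 0.55 (Tead4). Whole-gene counts check nothing about the loss of single exons. Of 6 T cell and Treg markers, none was at 0 in any library, and 4 (Ctla4, Ikzf2, Cd4 and Cd3e) were called lower in deleted libraries, as were 8.52% of all genes tested. None of the 4 passed with the receptor share as a covariate. With that covariate, calls over all genes fell from 2451 to 110. The receptor share itself differed between the groups, so the loss of a call does not tell genotype and receptor share apart. Ikzf2 and Cd4 lost their call when any 1 of most libraries was left out. Foxp3 itself was at 16.5 to 64.4 CPM in deleted and 35.3 to 74.3 CPM in control libraries. No label ties a library to a mouse, and p-values therefore rest on the spread among libraries. In sorted bulk cells, fewer cells that use a gene and less of its RNA per cell cannot be told apart.

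Against the median Olfr gene of the same library, 9 of the 10 genes had more counts in all 13 libraries, as did 65.1% of all genes in the table. Tead3 was the exception, above the median Olfr gene in 6 of 13 libraries. A stricter bar, the 95th percentile of Olfr genes, stood at 73.0 to 91.0 counts in deleted and 58.8 to 84.8 counts in control libraries. Tead1, Wwtr1 and Ankrd1 exceeded it in every library, which is 3 of 10 genes against 28.3% of all genes. Thus the share of these genes above the stricter bar was close to that of the table as a whole. With vomeronasal (Vmn) genes as the background, 7 genes were above the median and 1, Tead1, above the 95th percentile in every library. Counts were not divided by transcript length here, so the distance from an Olfr gene also holds the difference in length, and the genes are not ranked among each other.

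**Figure D1:**
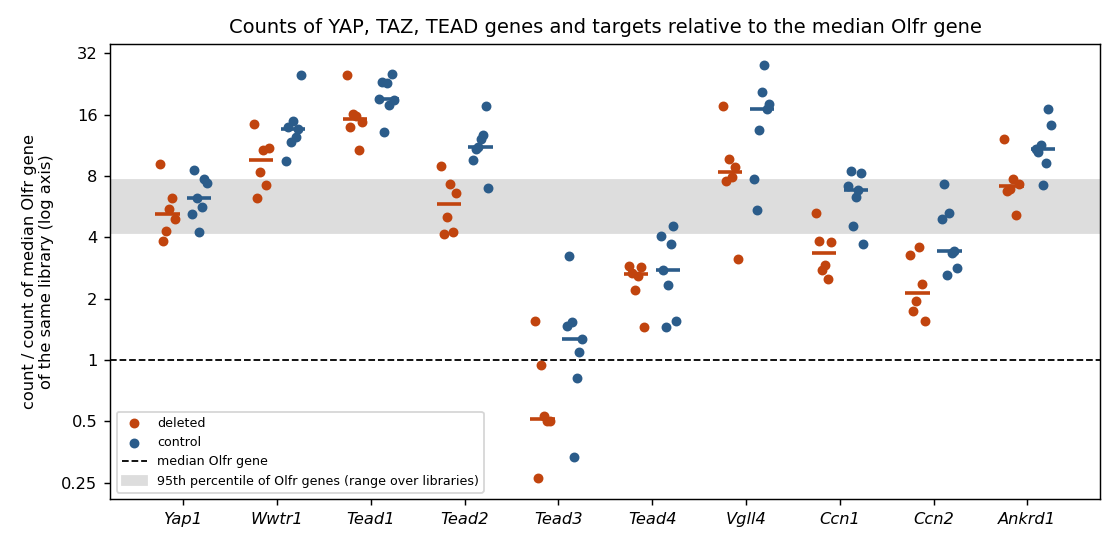
Count of each gene divided by the count of the median Olfr gene of the same library (log axis), for 6 deleted and 7 control libraries; points are libraries, short bars group medians, the dashed line the median Olfr gene and the grey band the range over libraries of the 95th percentile of Olfr genes. Tead1 sits at 10.7 to 25.4 in all libraries, whereas Tead3 lies on both sides of 1.

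Between the groups, none of the 10 genes passed the test. edgeR called 0 higher and 0 lower, and 0 had an unadjusted p under 0.05. Across the table as a whole, 2451 of 24068 genes tested were called (10.2%), with 1.66% higher and 8.52% lower in deleted libraries, and 25.8% had an unadjusted p under 0.05. DESeq2 called 0 of the 10 genes, with 0 at an unadjusted p under 0.05. limma-voom, always fitted here with a weight for each library, called 0, with 3 (Tead1, Tead4 and Yap1) at an unadjusted p under 0.05. The share of all genes under that unadjusted p was not taken for limma-voom. The median log2 fold change of the 10 genes was 0.02, against 0.06 over all genes tested, 0.58 over the Olfr genes tested and -0.38 over genes of at least 50 mean CPM. No gene had groups that did not overlap in CPM, which was seen for 2.11% of genes tested.

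Yap1 (gene number 22601; GRCm38 chromosome 9, 7931999 to 8004638) encodes the coactivator YAP. Its count was 73 to 125 (median 96) in deleted and 51 to 112 (median 81) in control libraries, which was above the 95th percentile of Olfr genes in 5 of 6 deleted and 5 of 7 control libraries. After TMM scaling (edgeR's trimmed mean of M-values, which sets the effective library size), it was at 16.6, 23.5 and 31.2 CPM (lowest, median, highest) in deleted and 8.73, 16.9 and 26.6 CPM in control libraries. The groups overlapped, with 2 deleted libraries above the highest control library. The means were 23.6 ± 5.45 CPM (SD, n = 6) in deleted and 16.8 ± 5.78 CPM (SD, n = 7) in control libraries, for a log2 fold change of 0.49 (95% confidence interval -0.03 to 1.02, edgeR adjusted p = 0.228).

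Wwtr1 (gene number 97064; chromosome 3, 57455644 to 57575910) encodes TAZ, the paralog of YAP. It had 119 to 220 counts (median 155) in deleted and 136 to 275 counts (median 161) in control libraries, at 6.26 to 14.5 times the median Olfr gene in deleted and 9.47 to 25.0 times in control libraries. In CPM it was at 27.0, 37.6 and 62.6 (lowest, median, highest) in deleted and 24.2, 30.8 and 64.3 in control libraries. In each group replicate 7 was the highest library, with the next highest deleted library at 43.8 CPM and the next highest control library at 43.2 CPM, and the ranges covered each other almost fully. The log2 fold change was 0.15 (95% confidence interval -0.34 to 0.63, edgeR adjusted p = 0.73).

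Among the TEAD factors, which bind DNA but need a coactivator to drive transcription, Tead1 (gene number 21676; chromosome 7, 112679356 to 112906784) had 213 to 296 counts in deleted and 172 to 325 counts in control libraries. It stood above at least 99.6% of Olfr genes in every library. In CPM it was at 53.1, 65.3 and 84.2 (lowest, median, highest) in deleted and 35.1, 48.7 and 71.4 in control libraries. All 6 deleted libraries lay above the control median, yet only 1 lay above the highest control library. Means of 66.5 ± 10.5 CPM (SD, n = 6) in deleted and 51.2 ± 12.7 CPM (SD, n = 7) in control libraries gave a log2 fold change of 0.38 (95% confidence interval -0.03 to 0.78, edgeR adjusted p = 0.23).

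Tead2 (gene number 21677; chromosome 7, 45215792 to 45233468), the TEAD of early mouse embryos, was at 17.9, 23.1 and 37.6 CPM (lowest, median, highest) in deleted and 18.0, 30.9 and 38.9 CPM in control libraries. Of the deleted libraries 1 was above the control median. Its log2 fold change was -0.20 (95% confidence interval -0.67 to 0.27, edgeR adjusted p = 0.614). Tead4 (gene number 21679; chromosome 6, 128227143 to 128300813), which is known for its part in the trophectoderm of the embryo, had 29 to 57 counts in deleted and 17 to 69 counts in control libraries. It was above the 95th percentile of Olfr genes in 0 of 13 libraries. All 6 deleted libraries were above the control median in CPM, with 7.69, 10.2 and 14.2 CPM (lowest, median, highest) in deleted and 3.98, 7.30 and 13.1 CPM in control libraries, for a log2 fold change of 0.48 (95% confidence interval -0.22 to 1.17, edgeR adjusted p = 0.389).

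Tead3 (gene number 21678; chromosome 17, 28331671 to 28350805) had the lowest counts of the 10 genes. They were 5 to 17 in deleted and 4 to 42 in control libraries. That is 0.263 to 1.55 times the median Olfr gene in deleted and 0.333 to 3.23 times in control libraries. Expression above this background was thus not detectable at this depth, and its log2 fold change of -0.45 had a 95% confidence interval from -1.59 to 0.69 (edgeR adjusted p = 0.644).

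Vgll4 (gene number 232334; chromosome 6, 114860621 to 114970007) encodes a cofactor that competes with YAP and TAZ for TEAD. It had 63 to 194 counts (median 160) in deleted and 71 to 310 counts (median 188) in control libraries. It was above the 95th percentile of Olfr genes in all libraries but deleted replicate 7 and control replicate 2. In CPM it was at 17.9, 37.8 and 46.6 (lowest, median, highest) in deleted and 16.8, 39.4 and 55.2 in control libraries. The lowest values of both groups nearly coincided, and 3 of 6 deleted libraries were above the control median. The log2 fold change was -0.05 (95% confidence interval -0.58 to 0.48, edgeR adjusted p = 0.922).

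The counts of Vgll4 rose with the total of the library, and those of Tead1, Wwtr1, Yap1 and Ankrd1 did not rise with it. Yap1 (51 and 62) and Ankrd1 (87 and 102) had their lowest counts in control replicates 4 and 5, the libraries of largest total. No correlation with the total was computed. Vgll4 had 63 counts in the library of smallest total, deleted replicate 7, and 310 in that of largest total, control replicate 5. In deleted replicate 7 Tead1 had 296, Wwtr1 220, Yap1 98 and Ankrd1 147 counts, and the median Olfr gene 20. In control replicate 5 Tead1 had 197, Wwtr1 136, Yap1 62 and Ankrd1 102 counts, and the median Olfr gene 11. Over the 13 libraries the coefficient of variation of the count was 17.8% for Tead1, 22.9% for Yap1, 23.7% for Wwtr1 and 21.9% for Ankrd1, against 34.9% for the total count and 38.8% for Vgll4. Division by the effective library size after TMM scaling raised it to 23.6% for Tead1, 32.4% for Yap1, 32.1% for Wwtr1 and 24.4% for Ankrd1. The same division lowered it to 31.3% for Vgll4. Division by the median Olfr count gave 26.0% for Tead1, 28.0% for Yap1, 38.5% for Wwtr1, 34.9% for Ankrd1 and 56.3% for Vgll4. For Yap1 alone of the 5 this gave less than division by the effective library size. The genes were picked for this contrast after their values were seen, and it is given as a description.

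Of the target genes, Ccn1 and Ccn2 encode secreted matricellular proteins, and Ankrd1 encodes an ankyrin repeat protein best known from heart and skeletal muscle. Ccn1 (gene number 16007; chromosome 3, 145646971 to 145649985) had 50 to 76 counts (median 54) in deleted and 41 to 122 counts (median 76) in control libraries. It was above the 95th percentile of Olfr genes in 0 of 6 deleted and 5 of 7 control libraries. In CPM it was at 12.0, 13.2 and 21.6 (lowest, median, highest) in deleted and 9.59, 13.4 and 26.1 in control libraries, and the deleted range lay within the control range. The log2 fold change was -0.17 (95% confidence interval -0.73 to 0.39, edgeR adjusted p = 0.731).

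Ccn2 (gene number 14219; chromosome 10, 24595442 to 24598683) had 31 to 61 counts (median 35.5) in deleted and 31 to 95 counts (median 38) in control libraries, above the 95th percentile of Olfr genes in 1 of 13 libraries. In CPM it was at 7.49, 8.74 and 14.7 (lowest, median, highest) in deleted and 6.59, 7.70 and 22.5 in control libraries. Means of 9.99 ± 2.70 CPM (SD, n = 6) in deleted and 11.2 ± 5.96 CPM (SD, n = 7) in control libraries gave a log2 fold change of -0.16 (95% confidence interval -0.85 to 0.52, edgeR adjusted p = 0.798). The deleted range again lay within the control range. Ankrd1 (gene number 107765; chromosome 19, 36111965 to 36119844) had 103 to 147 counts (median 130) in deleted and 87 to 188 counts (median 148) in control libraries. In CPM it was at 25.7, 31.2 and 41.8 (lowest, median, highest) in deleted and 14.9, 33.5 and 37.5 in control libraries. The deleted and control libraries overlapped widely, with a log2 fold change of 0.10 (95% confidence interval -0.37 to 0.58, edgeR adjusted p = 0.818).

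The 3 target genes are short enough for their annotated span to be set against that of Olfr genes, a check chosen after the data were seen. Span includes introns and is longer than the transcript, so counts per kb of span are a lower limit on counts per kb of transcript. The median Olfr gene of at most 1200 bp had 10.5 to 19.4 counts per kb in deleted and 9.89 to 16.9 in control libraries. Ccn1 had 16.6 to 25.2 counts per kb in deleted and 13.6 to 40.5 in control libraries, at 0.854 to 1.84 times the median Olfr gene in deleted and 1.29 to 3.05 times in control libraries. Ccn2 was at 0.502 to 1.17 times in deleted and 0.842 to 2.26 times in control libraries. Ankrd1, whose span is 7880 bp, was at 0.673 to 1.62 times in deleted and 0.951 to 2.41 times in control libraries. On this scale Ankrd1 was above the median Olfr gene in 2 of 6 deleted and 6 of 7 control libraries. Because the scale is a lower limit, it cannot tell whether Ankrd1 stands clear of the Olfr genes per kb of transcript.

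The sign of the fold change depended on what the libraries were scaled by for all of these genes but Tead3, which stayed negative. With TMM, 5 of the 10 log2 fold changes were positive and 5 negative. With the median Olfr count as the scale all 10 were negative, and 3 passed the edgeR test: Tead2 at -0.94 (SE 0.27, adjusted p = 0.011), Ccn1 at -0.88 (SE 0.27, adjusted p = 0.0164) and Ccn2 at -0.83 (SE 0.32, adjusted p = 0.0463). On that scale 36.9% of all genes tested were lower and 0.125% higher, with a median log2 fold change of -0.67 over all genes. With genes of at least 50 mean CPM as the scale, 9 of the 10 were positive and none passed, with Tead1 at 0.70 (SE 0.25, adjusted p = 0.072), where the median over all genes was 0.40. Once the receptor share entered the model as a covariate, Yap1 was at 0.04 and Tead1 at 0.06, whereas Vgll4 was at 0.66 (SE 0.29, adjusted p = 0.494), and none passed.

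**Figure D2:**
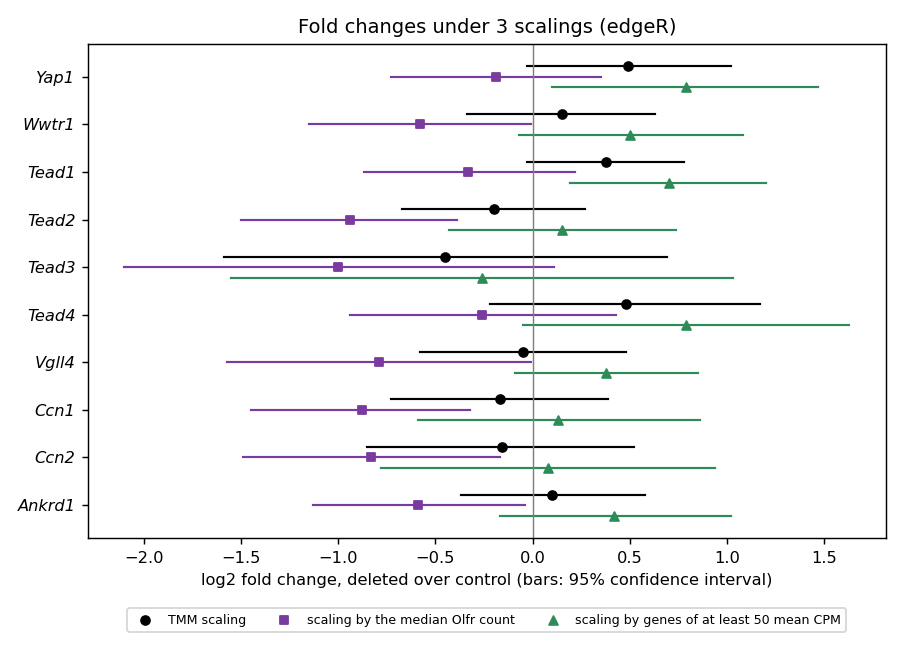
Log2 fold change, deleted over control, of each of the 10 genes with its 95% confidence interval (edgeR), under TMM scaling (circles), scaling by the median Olfr count (squares) and scaling by genes of at least 50 mean CPM (triangles). All 10 squares lie below 0 and 9 of 10 triangles above it.

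The remaining members of a conserved YAP/TAZ target list, 19 genes, were read beside these. In deleted libraries 1 of 19 fell and 0 rose, the other 18 not passing the test, against 8.52% of all genes lower and 1.66% higher, and the list's median log2 fold change was 0.04 against 0.06 over all genes. The one that fell, Nt5e, encodes the ecto-5'-nucleotidase CD73, which Treg cells use to make adenosine. It was at 14.5, 23.2 and 27.0 CPM (lowest, median, highest) in deleted and 68.8, 119 and 265 CPM in control libraries. All 6 deleted libraries lay below the lowest control library, with a log2 fold change of -2.71 (SE 0.29, edgeR adjusted p = 6.78e-06). It was -1.81 (SE 0.25, adjusted p = 0.000328) with the receptor share in the edgeR model and -3.51 (SE 0.46, adjusted p = 0.000229) with the median Olfr count as the scale. The tissue factor gene F3 was at 14.7 ± 4.48 CPM (SD, n = 6) in deleted and 7.93 ± 4.74 CPM (SD, n = 7) in control libraries, and its log2 fold change of 0.89 did not pass (edgeR adjusted p = 0.107). The Rac activator gene Dock5 was at 72.4 ± 6.84 CPM (SD, n = 6) in deleted and 53.9 ± 10.4 CPM (SD, n = 7) in control libraries, and its log2 fold change of 0.43 likewise did not pass (edgeR adjusted p = 0.136). Of the 19 genes, 8 were above the 95th percentile of Olfr genes in every library, Dock5 among them. F3 was above it in 0 of 13 libraries.

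Among 13 genes whose proteins bind or regulate YAP, TAZ or TEAD, 1 fell and 0 rose, against 8.52% of all genes lower and 1.66% higher. The other 12 did not pass, and the list had a median log2 fold change of 0.17, against 0.06 over all genes tested. Wbp2, which encodes a WW-domain binding partner of YAP and TAZ, fell. It was at 34.4, 48.3 and 65.1 CPM (lowest, median, highest) in deleted and 42.0, 105 and 166 CPM in control libraries. The groups overlapped, and 1 deleted library lay below the lowest control library. The log2 fold change was -1.09 (SE 0.27, edgeR adjusted p = 0.0133). It was -0.17 (adjusted p = 0.91) once the receptor share entered the edgeR model, -0.94 (adjusted p = 0.0673) with the replicate block, and -1.85 (adjusted p = 0.00427) with the median Olfr count as the scale. Nf2, the gene of the upstream regulator merlin, had a log2 fold change of -0.43 (edgeR adjusted p = 0.168). The vestigial-like gene Vgll3 was at 0.48 (edgeR adjusted p = 0.298), and neither passed.

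**Figure D3:**
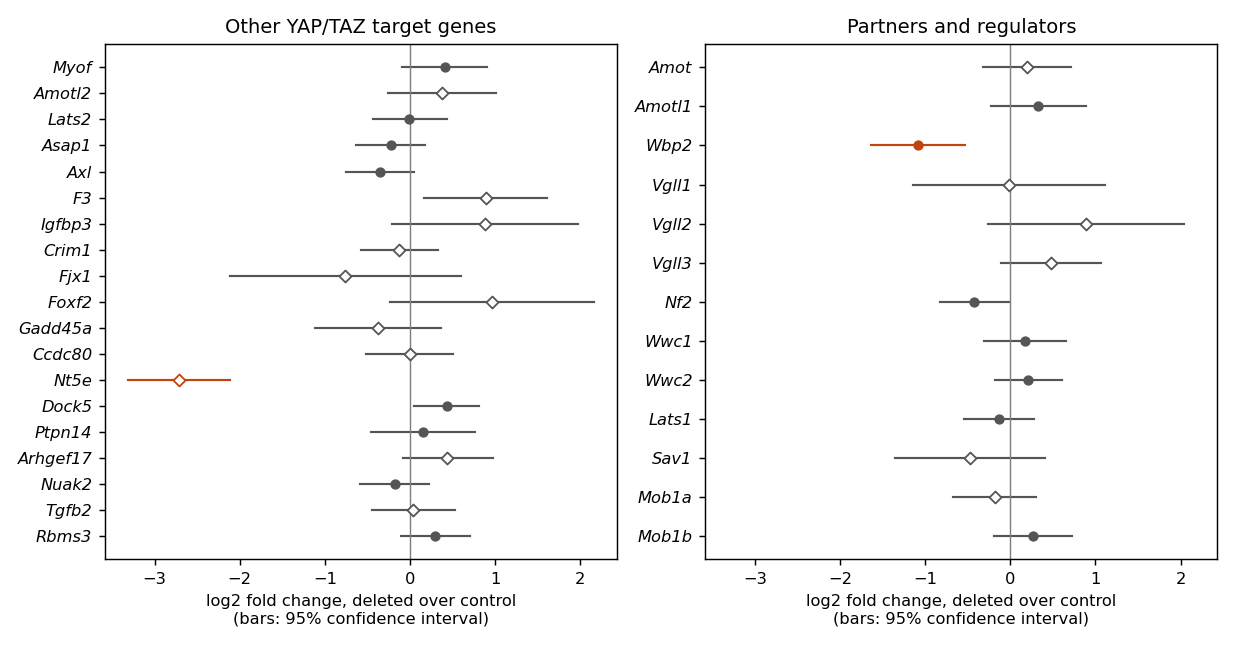
Log2 fold change, deleted over control, with its 95% confidence interval (edgeR, TMM) for 19 other YAP/TAZ target genes (left) and 13 partners and regulators (right); orange marks an adjusted p under 0.05, filled circles genes above the 95th percentile of Olfr genes in every library and open diamonds the rest. Nt5e at -2.71 and Wbp2 at -1.09 are the 2 genes in orange.

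Marker genes of fibroblasts, endothelium and epithelium, cells that are known to use YAP and TAZ, were also counted in every library. The 6 fibroblast markers were above the median Olfr gene in every library, as were 65.1% of all genes in the table. Of the 6, 4 were above the 95th percentile in every library, against 28.3% of all genes. The 6 fibroblast markers summed to 201 to 321 CPM in deleted and 152 to 273 CPM in control libraries. The 5 endothelial markers summed to 178 to 226 CPM in deleted and 166 to 233 CPM in control libraries, with 2 of 5 above the 95th percentile in every library. The 4 epithelial markers summed to 56.6 to 96.5 CPM in deleted and 48.4 to 90.0 CPM in control libraries, with 0 of 4 above it. No marker of these 3 lists was at 0 in any library, but the share of all genes never at 0 was not taken. None of the 15 passed the test, against 10.2% of all genes tested. In deleted libraries B cell markers summed to 71.8 to 92.8 CPM, myeloid markers to 76.5 to 125 CPM and CD8 T cell markers to 25.7 to 54.7 CPM. In control libraries B cell markers summed to 34.7 to 68.3 CPM, myeloid markers to 58.4 to 130 CPM and CD8 T cell markers to 40.3 to 59.8 CPM, and no marker was at 0. Of these the B cell gene Ms4a1 rose in deleted libraries, with a log2 fold change of 0.64 (edgeR adjusted p = 0.0448), which was -0.08 (adjusted p = 0.794) with the median Olfr count as the scale and 0.30 (adjusted p = 0.804) with the receptor share in the model. The part of other cells in the values of the 10 genes was not tested. The receptor share was entered as a covariate, but it differed between the groups, so its part and that of genotype cannot be told apart.

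For the 3 genes above the stricter bar in every library, the genes of most similar pattern were sought by Pearson's r of log2 CPM deviations from the group mean over the 13 libraries. Wwtr1 was most like Dync2h1 (r = 0.926), Cdh13 (r = 0.91) and Myo3a (r = 0.91). Genes most like Tead1 included Vil1 (r = 0.944) and Ebf4 (r = 0.912), and Ankrd1 was most like Rlbp1 (r = 0.926), Fbxl13 (r = 0.902) and Syt2 (r = 0.89). Among these are Vil1, the villin gene of gut epithelium, and Rlbp1, a retinaldehyde-binding protein gene of the retina. They were picked from 18898 genes, of which 8.36% to 12.8% had an r above 0.5 with these 3 genes, and the libraries share depth and receptor share, so the values are a description.

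In the authors' deposited table, the 10 genes had mean log2 fold changes from -0.33 (Tead3) to 0.51 (Yap1). Mean false discovery rates in the authors' deposited table ran from 0.22 (Yap1) to 0.935 (Vgll4), so none passed there.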

How the data were processed

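Raw counts for each gene in 13 libraries were deposited by the authors. Per the submitters' processing notes, the tools were featureCounts 2.0.1, DESeq2 1.26.0 and edgeR 3.28, on builds mm10 and GRCm38. Which aligner, annotation and strand setting the authors used is not given in the sources used here. Per the labels' protocols, a SMART-Seq v4 low-input kit made the cDNA. Per the file headers, the authors' deposited table holds p-values, false discovery rates and log2 fold changes (deleted over control). Group mean counts, a signal in the deposited tables, were not used. Of the 26720 genes, 1097 had no symbol in the table and were kept by gene number.

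After filterByExpr and TMM scaling, 1 quasi-likelihood model with a genotype term was fitted over all genes in edgeR 4.0.16 under R 4.3.3. P-values were adjusted by Benjamini-Hochberg over all genes tested, with a threshold of 0.05. Levels are TMM-scaled counts per 1000000 counts. Log2 CPM for the likeness of patterns had a prior of 2 CPM, among genes of an average log2 CPM of at least 3. The code was tested on simulated data. The 10 genes and all lists were chosen with earlier results of these data known. All 10 genes are named. From the other pathway lists the genes past the threshold and up to 3 of smallest p are named. The alternatives were DESeq2 size factors, upper quartile scaling, scaling by the median Olfr count or by genes of at least 50 mean CPM, DESeq2 1.42.0, limma-voom (limma 3.58.1), no filter on counts, a minimum of 10 CPM in at least 6 libraries, a replicate block, a covariate for the log receptor share, Vmn genes as background, and each library left out. Coordinates are of GRCm38.p6 genes matched by gene number. No 2 libraries of a group agreed within sampling noise. One gene of similar pattern is not reported here.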

Additional observations from a re-analysis of the deposited data

Results flagged for a closer look

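Single libraries stood apart, by Dixon's test of the gap to the nearest library over the range of the group, in 4 of 40 groups of values examined, where chance gives about 2. All 4 were ratios to the median Olfr gene. In the library labelled deleted replicate 1, whose median Olfr gene had 11 counts against 17 to 20 in the other deleted libraries, Tead1 was at 25.1 and Ankrd1 at 12.2 times that gene. Wwtr1 was at 25.0 times in control replicate 7, and Tead3 at 3.23 times in control replicate 2. In CPM no library passed that test for any of the 10 genes. Replicate 7 for Wwtr1 had a gap of 0.527 of the range in deleted and 0.527 in control libraries, under the critical values of 0.625 and 0.568.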

How the results depend on the processing

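The count of 0 of the 10 genes past the threshold held under every alternative run except scaling by the median Olfr count, which called 3 (lower). DESeq2 gave Tead3 no adjusted p, and the 10 CPM filter left Tead3 out. The counts of genes above the median Olfr gene (9) and above the 95th percentile (3) were unchanged without any 1 library; Vmn genes as background gave 7 and 1. Over all genes, called genes numbered 2451 (400 higher, 2051 lower), and 8904 (30 and 8874) with the median Olfr scale, 4112 (1174 higher) with limma-voom, 852 (118 and 734) with the replicate block, 110 (54 and 56) with the receptor share, 688 higher with DESeq2, 761 and 1208 with upper quartile scaling, and 1213 and 684 with the scale of genes of at least 50 mean CPM. Leaving out 1 library gave 1247 to 4108 (167 to 863 higher, 1034 to 3245 lower), with the total past 1.5 times in either direction without deleted replicate 2 (1580), 3 (1348), 5 (1256) or 7 (1247), or control replicate 2 (4108), 4 (1337) or 5 (1336). Other YAP/TAZ target genes called were 1, but 7 with the Olfr scale, 2 with the 50 CPM scale, 2 with limma-voom and 1 to 3 without 1 library (2 without control replicate 1, 3 without control replicate 2). Partners and regulators called were 1, but 4 with the Olfr scale, 0 with the block and 0 with the receptor share; the count stayed at 1 without any 1 library.

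Signs turned for genes that did not pass. With the Olfr scale these were Yap1 (-0.19), Wwtr1 (-0.58), Tead1 (-0.33), Tead4 (-0.26) and Ankrd1 (-0.59). With the 50 CPM scale they were Tead2 (0.15), Vgll4 (0.38), Ccn1 (0.13) and Ccn2 (0.08). With the receptor share they were Wwtr1 (-0.29), Ankrd1 (-0.31) and Vgll4 (0.66). Vgll4 was at 0.16 with upper quartile scaling and 0.06 with the 10 CPM filter, and Ccn2 at 0.08 with limma-voom. Without 1 library the range was -0.01 to 0.34 for Wwtr1, -0.18 to 0.08 for Vgll4, -0.31 to 0.10 for Ccn2 and -0.01 to 0.18 for Ankrd1. The sign turned without deleted replicate 7 for Wwtr1 and Vgll4, without control replicate 5 or 7 for Vgll4, without control replicate 2 for Ccn2 and without control replicate 4 for Ankrd1. The cause was not tested. Of the targeted genes, Stk3 was at 0.18 with upper quartile scaling, 0.37 with the 50 CPM scale, 0.01 with limma-voom, 0.09 with the 10 CPM filter, -0.11 to 0.09 without 1 library, and -0.77 (adjusted p = 0.029) with the Olfr scale; Stk4 was at 0.06 with the 50 CPM scale, 0.49 with the receptor share and -0.75 to -0.14 without 1 library. Among the cell type markers past the threshold, the receptor share ended every call (Cd4 at 0.00), and the block ended all but that of Ctla4. Ms4a1 was at -0.08 with the Olfr scale and did not pass with no filter; Ikzf2 and Cd4 did not pass with upper quartile or 50 CPM scaling, nor Cd4 with DESeq2 size factors. Without 1 library Ikzf2 and Ms4a1 passed only when deleted replicate 1 or control replicate 1 or 2 was left out, and Cd4 also without deleted replicate 4. Alternatives for these genes were chosen after the data were seen. Replicate numbers did not pair the libraries: same-numbered libraries had correlations of their deviations from the group means from -0.323 to 0.416, and no deleted library correlated best with its own number. The scale by transcript length was not run, since only gene spans were used.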
